A study of Mus musculus with 24 samples.

Results

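Transcripts of 40 genes that carry a signal from an activating receptor to phosphoinositide 3-kinase (PI3K) and calcium were followed across the 6 groups of a mouse natural killer (NK) cell RNA sequencing study. The 40 genes were listed by symbol, and each matched 1 of the 38215 gene rows of the deposited table. The rule used symbols only and no expression value, but the list was chosen with earlier results of these data known. All 40 passed the filter on low counts in every comparison, so none was left untested.

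The study asked what loss of FcRγ, the signalling adaptor encoded by Fcer1g, does to the transcripts of NK cells. FcRγ-deficient (KO) and wild-type (WT) NK cells were each profiled as IL-15-treated cells derived from spleen, as cells derived from tumour-bearing lung and as naive cells derived from spleen, with 4 biological replicates a group and 24 libraries in all. All groups are NK cells whose RNA was enriched for poly(A) transcripts, and the lung groups carry the treatment label naive. How FcRγ was deleted, how IL-15 was given, how NK cells were isolated, which tumour grew in the lung and whether each replicate is 1 animal: none of this is given in the sources used here.

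Background to the 40 genes runs from receptor to nucleus. Activating receptors of NK cells such as CD16 and NKp46 pair with adaptors that hold an immunoreceptor tyrosine-based activation motif (ITAM), and FcRγ is one of these adaptors. Src-family kinases phosphorylate the ITAM, the kinases Syk and Zap70 dock on it, and scaffold proteins then gather phospholipase C-γ and PI3K at the membrane. Phospholipase C-γ releases a messenger that empties the calcium stores and another that activates protein kinase C and Ras exchange factors; calcium entry through the store-operated channel finally switches on the NFAT transcription factors. In NK cells these steps lead to release of cytotoxic granules and to cytokine production.

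Fcer1g, the gene of FcRγ, served as the check of the genotype labels. It held 5.97, 3.92, 8.09 and 4.61 CPM (normalised read counts, scaled to a common library total) in IL-15 KO libraries, against 261, 321, 259 and 253 CPM in IL-15 WT libraries. In lung it held 16.3, 14.9, 12.8 and 13.1 CPM in KO libraries, against 754, 585, 484 and 555 CPM in WT libraries. In naive spleen it held 1.25, 6.85, 4.18 and 2.82 CPM in KO libraries, against 795, 719, 782 and 622 CPM in WT libraries. Every KO library stood below every WT library, so all labels matched the targeted gene. Library totals ran from 9.68 to 32.1 M counts, and naive KO replicate 1 (9.68 M) and lung WT replicate 1 (9.77 M) were the only libraries under 15 M. Mitochondrial genes took 0.809 to 2.82% of counts in IL-15 KO libraries, 1.76 to 2.78% in IL-15 WT, 8.49 to 10.7% in lung KO, 3.17 to 6.14% in lung WT, 1.18 to 9.28% in naive KO and 4.89 to 6.31% in naive WT. All 10 of 10 NK cell marker genes, Ncr1, Klrb1c and Prf1 among them, reached 1 CPM in each group.

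Promoters are shown for 4 members whose transcripts moved and which stand at different steps of the pathway: Lat (the membrane scaffold), Stim1 (the calcium store sensor) and Orai1 (the calcium channel), which all fell under IL-15, and Bcl10, whose KO call in naive spleen was kept in every alternative run. The windows run from 250 bases before to 50 bases after the gene start and come from RefSeq, build GRCm38.p6, in which 33 of the 40 members matched. They lie at chr7:126369519-126369818 on the minus strand for Lat, chr7:102267569-102267868 on the plus strand for Stim1, chr5:123014824-123015123 on the plus strand for Orai1 and chr3:145924012-145924311 on the plus strand for Bcl10. Capitals mark matches, on either strand, to the letters searched: GGGCGG for a GC box, TGTGGT for RUNX factors, CCGGAAG for ETS factors and TTCNNNGAA for STAT factors.
Lat: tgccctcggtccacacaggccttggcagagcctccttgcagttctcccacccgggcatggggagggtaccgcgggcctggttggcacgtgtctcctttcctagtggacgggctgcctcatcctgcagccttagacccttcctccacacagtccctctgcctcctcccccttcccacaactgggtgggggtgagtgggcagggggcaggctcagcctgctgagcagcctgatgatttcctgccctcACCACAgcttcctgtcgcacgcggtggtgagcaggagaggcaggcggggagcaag
Stim1: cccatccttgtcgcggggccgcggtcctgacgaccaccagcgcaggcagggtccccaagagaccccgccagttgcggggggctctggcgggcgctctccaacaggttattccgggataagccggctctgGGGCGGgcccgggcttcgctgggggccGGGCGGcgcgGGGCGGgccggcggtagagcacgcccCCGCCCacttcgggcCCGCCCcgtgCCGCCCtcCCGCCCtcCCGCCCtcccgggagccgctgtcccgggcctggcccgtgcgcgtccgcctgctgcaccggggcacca
Orai1: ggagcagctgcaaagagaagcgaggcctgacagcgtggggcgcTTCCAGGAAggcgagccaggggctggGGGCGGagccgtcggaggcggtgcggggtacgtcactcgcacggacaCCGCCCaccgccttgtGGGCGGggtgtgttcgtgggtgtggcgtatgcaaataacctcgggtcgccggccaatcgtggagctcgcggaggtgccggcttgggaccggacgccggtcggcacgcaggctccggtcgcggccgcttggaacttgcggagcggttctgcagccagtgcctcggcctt
Bcl10: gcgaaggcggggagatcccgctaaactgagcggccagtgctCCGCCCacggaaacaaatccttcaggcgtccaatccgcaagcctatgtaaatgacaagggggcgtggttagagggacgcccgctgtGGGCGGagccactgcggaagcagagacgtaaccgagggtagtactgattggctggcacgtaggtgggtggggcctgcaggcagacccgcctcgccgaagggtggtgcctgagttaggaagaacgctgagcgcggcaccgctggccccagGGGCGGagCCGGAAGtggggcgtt
The Lat window held 1 RUNX match, and the Stim1 window held 8 GC box matches. The Orai1 window held 3 GC box matches and 1 STAT match, and the Bcl10 window held 3 GC box matches and 1 ETS match. Among all 32851 RefSeq promoter windows of this length, 35.7% held the GC box letters, 16.8% the RUNX letters, 8.86% the ETS letters and 8.3% the STAT letters. Among the 33 members with a window, 23 held a GC box match, 5 a RUNX match, 2 an ETS match and 2 a STAT match. Members were counted once a gene, while the percentages count windows of all genes, so they differ in unit and gene set. These are matches of letters, not sites.

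Levels of different genes were compared per kilobase of exon (CPM/kb), in naive WT spleen, before any effect of genotype or treatment. Lck, the Src-family kinase best known from T cells, stood highest at 327 CPM/kb. Ptprc, which encodes the phosphatase CD45, followed at 134, Fyn at 124 and Csk, the kinase that holds Src-family kinases off, at 119 CPM/kb. With the longest transcript in place of all exons as the length, Lck and Ptprc were close to level, at 438 and 429 CPM/kb. At the low end, Plcg1 stood at 0.218, Vav2 at 1.28, Sos1 at 1.85, Gab2 at 2.28 and Vav3 at 3.18 CPM/kb. The other 31 members lay between 4.33 CPM/kb for Nfatc2 and 70.3 CPM/kb for Grb2, an adaptor that brings Sos1 to the membrane.

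Related genes of 1 family stood in a steady order in nearly every library. Per kilobase, Zap70 stood 3.68 ± 0.514 times above Syk in naive WT libraries (mean ± SD, n = 4) and at most 4.58 times above it over all 24 libraries. Lck stood 2.64 ± 0.117 times above Fyn, and 12.4 ± 1.58 times above Lyn. Plcg2 stood 144 ± 68.8 times above Plcg1, so phospholipase C-γ transcripts in these cells were almost all Plcg2, with a range of 19.1 to 238 times over the 24 libraries. Among the Vav exchange factors, which activate Rac, Vav1 stood 37.4 ± 6.1 times above Vav2 and 15 ± 3.43 times above Vav3. Lat2 stood 2.16 ± 0.312 times above Lat, Cblb 2.02 ± 0.194 times above Cbl, Prkcq 2.89 ± 0.251 times above Prkcd, and Txk 2.58 ± 0.308 times above Tec. Each of these orders held in all 24 libraries, with either length. Nfatc3 and Nfatc1 had no fixed order, with Nfatc3 above Nfatc1 in 4 of 24 libraries (8 with the longest transcript as length), while Nfatc1 stood above Nfatc2 in all 24.

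Loss of FcRγ in naive spleen came with 5 members higher and 1 lower at an adjusted p under 0.05 (edgeR's quasi-likelihood test, Benjamini-Hochberg adjustment over all genes tested). Syk, Plcg2, Pik3cd, Ptpn11 and Nfatc2 rose by 1.34- to 1.62-fold, and Bcl10 fell to 0.734 of the WT level. Of all 13344 genes tested, 11.1% rose and 9.22% fell, 20.3% in all, so the share of members that passed in either direction was no larger than that of all genes. The median change of the 40 members was 0.141 on the log2 scale, beside −0.001 for all genes, and 31 of the 40 had a positive sign. The 5 rises depended on the handling of gene length, as given at the end of this comparison.

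Among the proximal kinases, Syk docks on phosphorylated ITAMs and passes the signal to the scaffolds. Syk held 346, 305, 259 and 296 CPM in naive KO libraries, against 214, 161, 138 and 216 CPM in naive WT libraries. All KO libraries were above all WT libraries, and the change was 0.70 ± 0.14 log2 units (± standard error), with an adjusted p of 0.00266. Zap70, the other kinase of its kind, averaged 244 ± 31.2 CPM in naive KO and 210 ± 23.3 CPM in naive WT libraries (SD, n = 4 each), with an adjusted p of 0.277. Lck, Fyn and Lyn did not pass, with log2 changes of −0.20, 0.09 and −0.15.

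Plcg2, the phospholipase C-γ that dominates here, held 174, 159, 154 and 161 CPM in naive KO libraries, against 134, 107, 91.4 and 133 CPM in naive WT libraries. The groups did not overlap, and Plcg2 rose by 0.45 ± 0.13 log2 units with an adjusted p of 0.0208. Plcg1 lay at the bottom of the range in both, at 3.03 ± 1.31 CPM in naive KO and 1.71 ± 0.76 CPM in naive WT libraries, and did not pass (adjusted p = 0.21). Vav2 and Vav3 had positive changes of 0.77 and 0.46 that missed the threshold, at adjusted p of 0.0562 and 0.0749.

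Pik3cd encodes p110δ, the catalytic PI3K subunit of lymphocytes. It held 698, 534, 465 and 520.3 CPM in naive KO libraries, against 404, 323, 284 and 425 CPM in naive WT libraries. The groups did not overlap, and the change was 0.60 ± 0.14 log2 units with an adjusted p of 0.00694. Its regulatory partner Pik3r1 (p85α) did not pass, at 326 ± 54.7 CPM in naive KO and 286 ± 29.4 CPM in naive WT libraries. Pik3ap1, the PI3K adaptor BCAP, stood just outside the threshold at 0.41 ± 0.15 log2 units with an adjusted p of 0.0515.

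Ptpn11 encodes the phosphatase SHP-2. It held 176, 162, 145 and 148 CPM in naive KO libraries, against 121, 119.6, 98.3 and 123 CPM in naive WT libraries, without overlap. The change was 0.42 ± 0.11 log2 units with an adjusted p of 0.0135. Its relative Ptpn6 (SHP-1), the phosphatase that inhibitory NK receptors recruit, averaged 138 ± 11.2 CPM in naive KO and 128 ± 22.8 CPM in naive WT libraries and did not pass. Nfatc2, a calcium-driven transcription factor, held 80.4, 76.1, 59.6 and 78.3 CPM in naive KO libraries, against 49.2, 41.3, 38.9 and 53.9 CPM in naive WT libraries. These groups did not overlap either, and Nfatc2 rose by 0.65 ± 0.16 log2 units with an adjusted p of 0.00845.

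Bcl10 joins Malt1 in the complex that links protein kinase C to NF-κB. It held 65.8, 71.2, 63 and 82.3 CPM in naive KO libraries, against 85.3, 95.2, 92.5 and 104 CPM in naive WT libraries. Every KO library was below every WT library, and the change was −0.45 ± 0.11 log2 units with an adjusted p of 0.00992. Malt1, its partner, did not pass, at 147 ± 15.5 CPM in naive KO and 138 ± 19 CPM in naive WT libraries. The calcium channel gene Orai1 was also below WT in every KO library, at 27.5, 31.6, 29.3 and 28.9 CPM in naive KO against 33.5, 40.5, 42.3 and 33.6 CPM in naive WT libraries, but missed the threshold at an adjusted p of 0.0614. Across all 34 members that did not pass, log2 changes ran from −0.38 for Orai1 to 0.78 for Plcg1.

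Sums of cell marker genes also differed in level between these libraries, none past the threshold after adjustment over 33 tests of such sums. The exact permutation test of 4 against 4 gives no p under 0.0286. A sum could therefore pass after adjustment only if many others reached that value too, so the missed threshold says little. The 10 NK cell markers summed to 15200 to 17900 CPM in naive KO libraries, against 19800 to 21900 CPM in naive WT libraries, without overlap. The T cell list summed to 136 to 204 CPM in naive KO and 98.8 to 145 CPM in naive WT libraries, with Cd8b1 at 0 in both. The basophil and mast cell list stood at 0 to 0.801 CPM in naive KO and 1.2 to 4.32 CPM in naive WT libraries. The part of these markers in the members' changes was not tested.

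**Figure D1:**
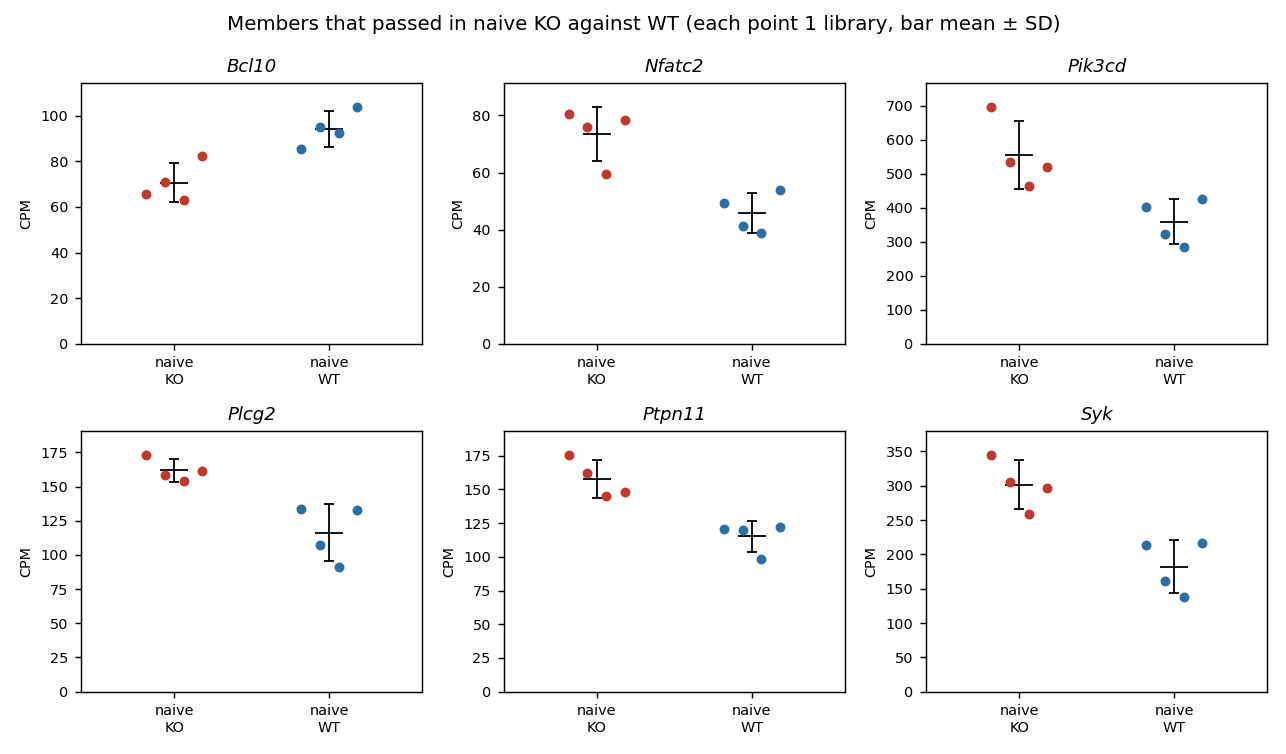
Level in CPM (vertical axis) of the 6 members that passed in naive KO against WT, 1 panel a gene. Each point is 1 library (4 a group), the long bar is the mean and the whisker 1 SD. In each panel the KO and WT libraries do not overlap, and Bcl10 alone is lower in KO.

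The change in naive KO followed transcript length across the table, as did those of IL-15 and lung against naive spleen, given with those comparisons. Genes with under 1.5 kb of exon had a median log2 change of −0.30 (1739 genes), those of 6 to 10 kb had 0.12 (2674 genes) and those of 10 kb or more had 0.34 (1132 genes). None of the 40 members was under 1.5 kb. The 7 members of 1.5 to 3 kb had a median of 0.03, and the 12 members of 3 to 6 kb had 0.07. The 11 members of 6 to 10 kb had 0.54, and the 10 members of 10 kb or more had 0.17. When each library was given a smooth correction for exon length and GC content, 1 member was higher and 6 were lower. The median of the members was then 0.038, beside 0.001 for all genes, and the share of all genes called is not given here. In that fit Syk stood at 0.22, Plcg2 at 0.28, Pik3cd at 0.18, Ptpn11 at 0.16 and Nfatc2 at 0.08 log2 units, none of them past the threshold, and Bcl10 stood at −0.52 with an adjusted p of 0.00343. The other members called with the correction were Vav3 (0.45, higher) and Lck (−0.25), Csk (−0.53), Prkcd (−0.45), Stim1 (−0.42) and Orai1 (−0.52), all lower. Whether length or genotype accounts for the rises was not tested. Without naive WT replicate 3 the count higher was 3, with Plcg2 and Ptpn11 lost, and without naive WT replicate 2 Plcg2 was lost. Without naive WT replicate 4 the count higher was 8, and without naive WT replicate 1 the count lower was 2.

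**Figure D2:**
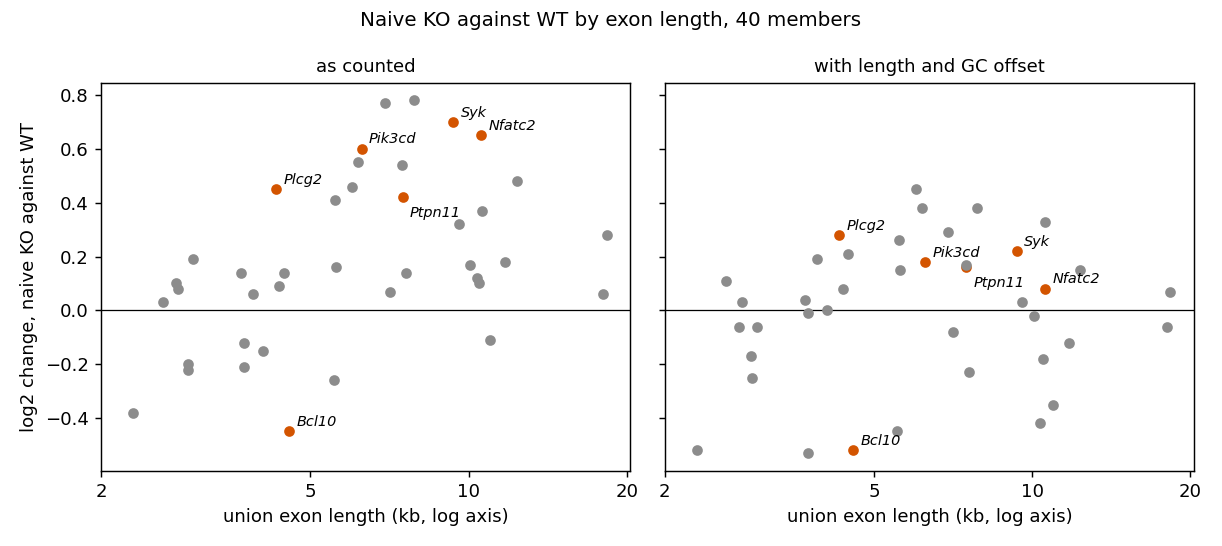
Log2 change of the 40 members in naive KO against WT (vertical axis) by summed exon length in kb (horizontal log axis), as counted on the left and with the length and GC correction on the right. Orange points are the 6 members that passed as counted: Syk moves to 0.22 on the right and Bcl10 remains below 0 on both sides.

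Under IL-15 and in tumour-bearing lung no member differed between KO and WT at the threshold. Under IL-15, edgeR called 0 of 40 members in either direction, 0 had an unadjusted p under 0.05, and DESeq2 called 0; of all 13344 genes tested, 0.0824% rose and 0.0525% fell, 0.135% in all. The members' log2 changes ran from −0.18 to 0.35, with a median of 0.069 beside −0.007 for all genes. In lung, edgeR called 0 of 40, 5 had an unadjusted p under 0.05, and DESeq2 called 0; 0.305% of 13129 genes rose and 0.32% fell, 0.625% in all. The median of the members was 0.013 there, beside 0.002 for all genes, and their range was −0.32 to 0.61.

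Syk, which rose in naive KO spleen, held 220.0, 215, 213 and 197 CPM in IL-15 KO libraries, against 193, 145, 212 and 211 CPM in IL-15 WT libraries. In lung it held 325, 314, 301 and 317 CPM in KO libraries, against 240.1, 333, 335 and 333 CPM in WT libraries. The genotypes overlapped in both, with log2 changes of 0.14 (95% interval −0.14 to 0.42) under IL-15 and 0.02 (−0.22 to 0.26) in lung. Pik3cd changed by 0.14 (−0.14 to 0.41) under IL-15 and 0.31 (0.04 to 0.57) in lung. Bcl10 stood at 0.04 (−0.18 to 0.26) under IL-15, and in lung at −0.32 (−0.52 to −0.11), where all KO libraries lay below all WT libraries at an adjusted p of 0.277. In lung, Cbl, a ubiquitin ligase that marks active kinases for removal, had a change of 0.61 ± 0.24 with an adjusted p of 0.371. Without the shallow lung WT replicate 1, Gab3, a docking adaptor of the Gab family, was called higher in lung KO at 0.50 with an adjusted p of 0.0318, and 448 genes passed in place of 82.

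The difference of the KO effect between states was tested directly as an interaction. For IL-15 minus naive, edgeR called 0 members, 7 had an unadjusted p under 0.05, and DESeq2 called 2 higher, Bcl10 at 0.46 and Csk at 0.33, with adjusted p of 0.0462 and 0.0456. Of all 13344 genes, edgeR called 0.472% higher and 1.06% lower, 1.54% in all, in this interaction, and DESeq2 called 692 genes. For lung minus naive, edgeR called 0, and 5 had an unadjusted p under 0.05. DESeq2 called 1 lower, Syk at −0.73 with an adjusted p of 0.0161. Of all 14275 genes, edgeR called 0.168% higher and 0.981% lower, 1.15% in all, and DESeq2 called 520 genes. Syk had the interaction values −0.56 ± 0.20 (adjusted p = 0.168) and −0.71 ± 0.20 (adjusted p = 0.0747). Without IL-15 WT replicate 2, Bcl10 (0.54, adjusted p = 0.0481) and Syk (−0.63, adjusted p = 0.0469) passed in the IL-15 interaction. Over all genes, 714 passed in that run in place of 205. Without lung WT replicate 1, naive WT replicate 1 or naive WT replicate 4, Syk passed in the lung interaction, at −0.81, −0.79 and −0.80. Over all genes, 570 passed without lung WT replicate 1 in place of 164. The counts without naive WT replicate 1 or 4 are not given here.

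IL-15 against naive spleen moved many more of these genes, as it did of all genes, and more members fell than rose. In WT cells 12 members fell and 5 rose (30% and 12.5%), where 26% of 13344 genes fell and 26.4% rose, 52.4% in all. The share of members that fell in WT was thus close to that of all genes. In KO cells 16 fell and 3 rose (40% and 7.5%), where 21% of genes fell and 20.7% rose, 41.7% in all. Lat, Lck, Csk, Prkcq, Stim1, Orai1, Fyn, Pag1, Grb2 and Ptpn6 fell in both genotypes, and Cblb, Malt1 and Lcp2 rose in both. The median of the members was −0.301 in KO cells and −0.077 in WT cells, beside −0.007 and −0.012 for all genes. The comparisons in the 2 genotypes share no library. In bulk RNA, fewer cells of a type and less RNA per cell cannot be told apart.

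At the receptor end, the Src-family kinases Lck and Fyn, which phosphorylate the ITAM, fell. Lck held 561, 504, 491 and 499 CPM in IL-15 KO libraries, against 815, 871, 866 and 838 CPM in naive KO libraries. In WT cells it held 488, 473, 456 and 456 CPM under IL-15, against 1037, 869, 890.3 and 1030 CPM in naive libraries. Treated and naive libraries did not overlap in either genotype, and the change was −0.79 ± 0.09 in KO (adjusted p = 1.70e-06) and −1.11 ± 0.09 in WT (adjusted p = 1.73e-08). Fyn, which shares this work, stood at 356 ± 12.7 CPM in IL-15 KO and 585 ± 29.5 CPM in naive KO libraries (SD, n = 4 each), without overlap. In WT it stood at 349 ± 39.8 CPM under IL-15 and 539 ± 33.9 CPM in naive libraries, and the changes were −0.79 ± 0.09 in KO and −0.72 ± 0.09 in WT. Lyn did not pass in either genotype. Syk fell by 0.58 log2 units in KO (adjusted p = 0.00281) and stood at −0.03 in WT (adjusted p = 0.894), a difference that edgeR's interaction test did not call.

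Csk and Pag1, which keep Src-family kinases in check, fell too. Csk, the inhibitory kinase, held 279, 270.2, 243 and 255 CPM in IL-15 KO libraries, against 356, 418, 378 and 409 CPM in naive KO libraries. WT libraries held 236, 244, 237 and 229 CPM under IL-15, against 442, 449, 405 and 480.1 CPM in naive libraries. The groups did not overlap in either genotype, with changes of −0.64 ± 0.09 in KO (adjusted p = 1.78e-05) and −1.0 ± 0.09 in WT (adjusted p = 6.53e-08). Pag1, the membrane adaptor that anchors Csk, changed by −0.77 ± 0.20 in KO (adjusted p = 0.00475) and −0.51 ± 0.20 in WT (adjusted p = 0.0375). Its libraries held 64.2, 84.7, 75.4 and 66.3 CPM in IL-15 KO against 79.3, 151, 95.3 and 144 CPM in naive KO, and 64.9, 45.4, 85.6 and 80 CPM in IL-15 WT against 92.4, 77.7, 102 and 98.4 CPM in naive WT, with overlap in both genotypes. The Pag1 call in WT was lost without IL-15 WT replicate 1 or 2, or naive WT replicate 1, 3 or 4. Ptprc (CD45), which removes the inhibitory phosphate that Csk adds, fell by 0.55 log2 units in KO (adjusted p = 0.00594) and stood at −0.10 in WT.

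The scaffold Lat, on which phospholipase C-γ and Grb2 assemble, had the largest fall of the 40 in both genotypes. It held 31.4, 22.7, 26.5 and 27.1 CPM in IL-15 KO libraries, against 109, 63, 72.1 and 64.8 CPM in naive KO libraries. WT libraries held 28.1, 44.3, 24.6 and 22.6 CPM under IL-15, against 85.8, 67.9, 70.6 and 57.3 CPM in naive libraries. Treated libraries were below all naive libraries, and the change was −1.58 ± 0.21 in KO (adjusted p = 7.48e-06) and −1.32 ± 0.21 in WT (adjusted p = 3.47e-05). Its relative Lat2 changed by −0.38 in KO (adjusted p = 0.0337) and −0.18 in WT (adjusted p = 0.283), and the KO call was lost without IL-15 KO replicate 2, 3 or 4 or naive KO replicate 1 or 3. Grb2 fell by 0.39 log2 units in KO and 0.69 in WT. Lcp2, which encodes the adaptor SLP-76 that works beside Lat, rose by 0.34 in KO and 0.51 in WT, without overlap of libraries in either genotype.

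Further down, the lipase, exchange factor and kinase genes were mixed. Prkcq, the protein kinase C-θ gene, held 152, 159, 151 and 153 CPM in IL-15 KO libraries, against 244, 247, 226 and 245 CPM in naive KO libraries. Among WT libraries it was 149, 123, 153 and 151 CPM under IL-15, against 231, 204, 208 and 257 CPM in naive libraries. The groups did not overlap, with changes of −0.71 ± 0.10 in KO (adjusted p = 9.49e-06) and −0.73 ± 0.10 in WT (adjusted p = 4.52e-06). Malt1, the protease of the Bcl10 complex, held 179.6, 236, 227 and 205 CPM in IL-15 KO libraries, against 138, 165, 131 and 154 CPM in naive KO libraries. In WT it held 217, 163, 275 and 241 CPM under IL-15, against 118, 126, 151 and 157 CPM in naive libraries. Treated and naive libraries did not overlap, and Malt1 rose by 0.46 in KO (adjusted p = 0.016) and 0.61 in WT (adjusted p = 0.00162), while Bcl10 fell by 0.71 in WT and stood at −0.23 in KO (adjusted p = 0.113). The KO call of Malt1 was lost without IL-15 KO replicate 2. Plcg2 fell by 0.59 log2 units in KO (adjusted p = 0.00121) and stood at −0.28 in WT (adjusted p = 0.0733). Vav1 fell by 0.31 in KO, a call lost without IL-15 KO replicate 3, and Txk, a Tec-family kinase, fell by 0.32 in WT, a call lost without IL-15 WT replicate 1 or 4 or naive WT replicate 3. Rasgrp1, a Ras exchange factor that diacylglycerol activates, rose by 0.46 in WT and stood at 0.25 in KO.

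Of the PI3K genes, Pik3cd rose in WT. It held 624, 525, 718 and 697 CPM in IL-15 WT libraries, against the naive WT values given above, without overlap. The change was 0.75 ± 0.14 in WT (adjusted p = 0.00021) and 0.29 ± 0.14 in KO (adjusted p = 0.109), where IL-15 libraries held 769, 705, 735 and 628 CPM and overlapped the naive ones. Without naive KO replicate 1, the KO change was 0.41 with an adjusted p of 0.0223. Pik3r1 and Pik3ap1 did not pass in either genotype.

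Among the brakes, Cblb, a ubiquitin ligase that restrains activation in T and NK cells, rose. It held 227, 269, 257 and 228 CPM in IL-15 KO libraries, against 104, 166, 132 and 167 CPM in naive KO libraries, without overlap. In WT it held 218, 154, 258 and 265 CPM under IL-15, against 111, 108, 145 and 158 CPM in naive libraries, with overlap. The change was 0.71 ± 0.18 in KO (adjusted p = 0.00343) and 0.69 ± 0.18 in WT (adjusted p = 0.0032). Ptpn6 fell by 0.42 log2 units in KO and 0.45 in WT. Inpp5d (the lipid phosphatase SHIP-1), Ptpn11 and Cbl did not pass in either genotype.

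Stim1 and Orai1, the members that serve store-operated calcium entry, fell, while their relatives among the further genes were mixed. Stim1, the sensor in the store membrane, held 106, 107, 106 and 96.1 CPM in IL-15 KO libraries, against 225, 175, 157 and 167 CPM in naive KO libraries. WT libraries held 95.4, 88.1, 104 and 104 CPM under IL-15, against 146, 169, 146 and 189 CPM in naive libraries. The groups did not overlap, and the change was −0.87 ± 0.12 in KO (adjusted p = 8.85e-06) and −0.82 ± 0.12 in WT (adjusted p = 1.08e-05). Orai1, the channel pore that Stim1 opens, held 19.1, 20.3, 16.8 and 19.3 CPM in IL-15 KO libraries and 16.2, 22.8, 18.8 and 15.3 CPM in IL-15 WT libraries, all below the naive libraries of the same genotype. Its change was −0.71 ± 0.14 in KO (adjusted p = 0.000539) and −1.12 ± 0.14 in WT (adjusted p = 2.43e-06). Of the relatives, Orai3 fell in both genotypes. Orai2 changed by −0.82 in KO (adjusted p = 0.00025) and 0.09 in WT (adjusted p = 0.637). Stim2 did not pass, at −0.11 in KO and 0.24 in WT. Nfatc2 fell by 0.42 in KO, a call lost in 11 of 16 alternatives, among them DESeq2, no filter, and leaving out IL-15 KO replicate 1, 3 or 4 or naive KO replicate 1, 2 or 4, while Nfatc1 and Nfatc3 did not pass.

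Of the falls shared by both genotypes, only that of Pag1 in WT was lost in any alternative run. With the length and GC correction the median of all genes moved to −0.151 in KO and −0.129 in WT. The median of the members was then −0.446 in KO and −0.48 in WT, and 26 members fell in each genotype. The share of all genes called lower in that fit is not given here. Among all calls the share that was higher moved to 36.3% from 49.7% in KO and to 39.6% from 50.4% in WT. With the correction Lat stood at −1.71 in KO and −1.55 in WT, Stim1 at −1.2 and −1.57, and Prkcq at −0.95 and −1.10. As counted, genes with under 1.5 kb of exon had a median change of −0.14 in KO and −0.34 in WT, and those of 10 kb or more had 0.24 in KO and 0.55 in WT. The rises were the less steady side. With the correction, in KO Malt1 stood at 0.10 and lost its call, and in WT Cblb stood at 0.08, Malt1 at 0.03 and Rasgrp1 at 0.24, all with their calls lost. Pik3cd in WT stood at 0.22 (adjusted p = 0.035), and in KO Cblb stood at 0.37 and Lcp2 at 0.18, with their calls kept. Without IL-15 WT replicate 2 the count higher in WT was 10, and without naive WT replicate 4 it was 8. NK cell marker genes summed to 6380 to 7160 CPM in IL-15 KO libraries and 7060 to 8560 CPM in IL-15 WT libraries, against the naive sums given above, which were all higher. The T cell list, at 9 genes, summed to 45.4 to 83.5 CPM under IL-15, with Cd4, Cd8a and Cd8b1 at 0, against 98.8 to 204 CPM in naive libraries. The mitochondrial share was lower in all 8 IL-15 libraries than in every naive WT library, and overlapped between IL-15 KO and naive KO. The part of the cell markers and of this share in the falls was not tested.

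**Figure D3:**
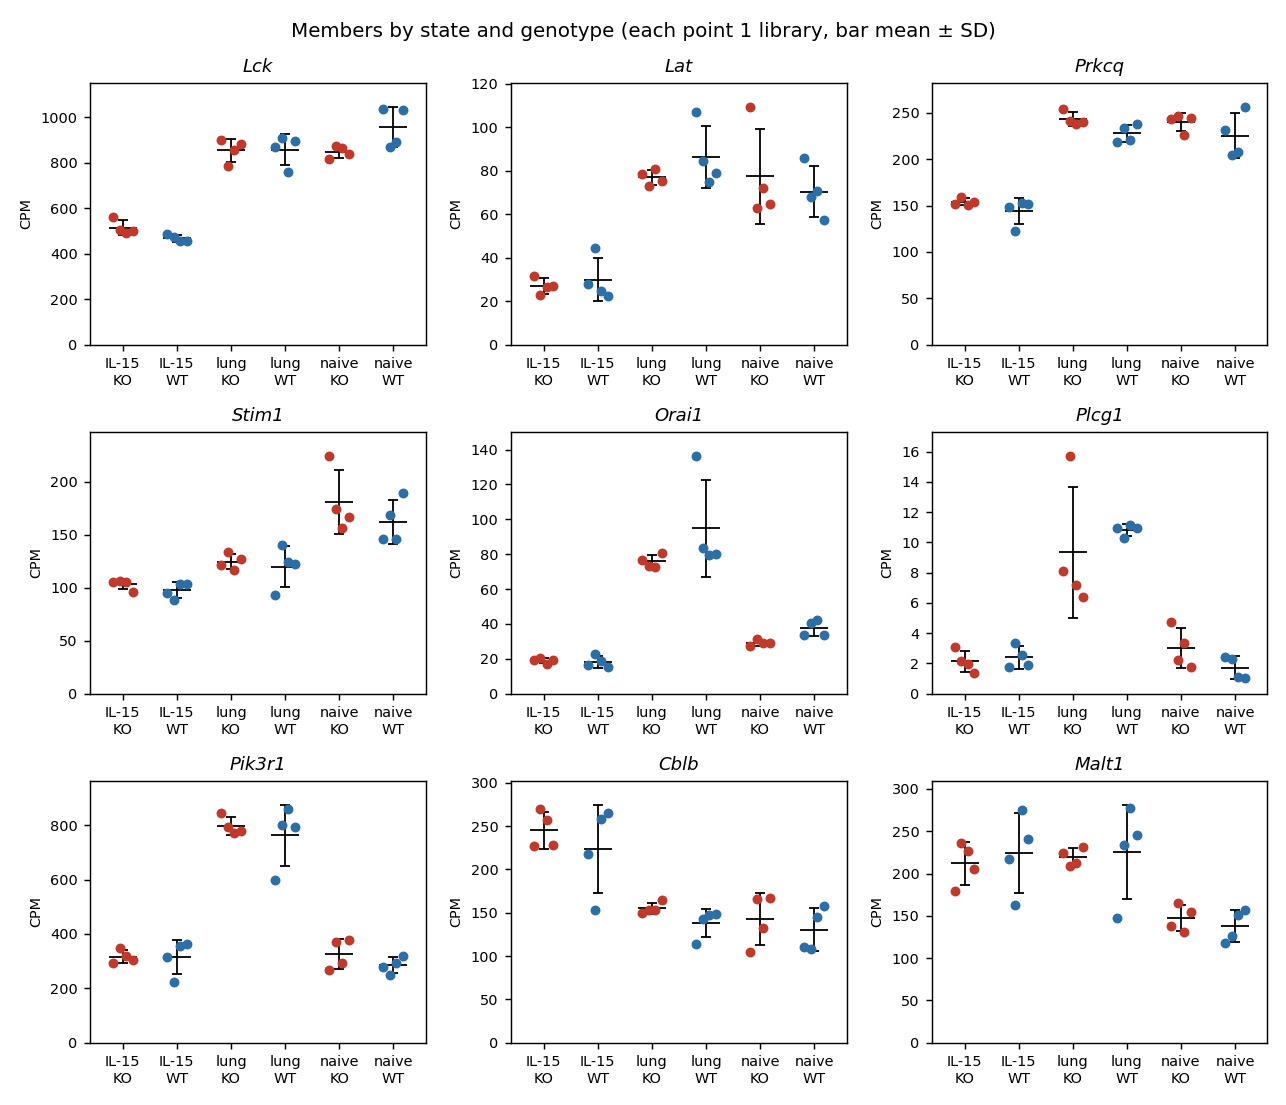
Level in CPM (vertical axis) of 9 members by state and genotype. Each point is 1 library, red for KO and blue for WT, the long bar is the mean and the whisker 1 SD (4 libraries a group). Lck, Lat, Prkcq and Stim1 are low under IL-15, Orai1, Plcg1 and Pik3r1 are high in lung, and Cblb is highest under IL-15.

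NK cells of tumour-bearing lung against naive spleen showed a partly different set. Plcg1, Pik3r1, Orai1, Prkcd, Gab2 and Malt1 were among the rises shared by both genotypes. Malt1 had also risen, and Stim1 fell here as it had, under IL-15 in both genotypes. In KO cells 8 members were higher and 5 lower, where 24.3% of 14275 genes were higher and 18.1% lower, 42.4% in all. In WT cells 14 were higher and 5 lower, where 29.2% of genes were higher and 20% lower, 49.2% in all. The median of the members was 0.024 in KO, beside 0.049 for all genes, and 0.171 in WT, beside 0.078. Tissue and tumour differ together between these groups, so their effects cannot be told apart.

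Plcg1, the phospholipase C-γ of T cells, was scarce in spleen and higher in lung. It held 8.10, 15.7, 7.17 and 6.38 CPM in lung KO libraries, against 4.72, 2.23, 3.37 and 1.79 CPM in naive KO libraries. In WT it held 10.9, 10.3, 11.1 and 11 CPM in lung, against 2.45, 2.29, 1.09 and 1.02 CPM in naive libraries. All lung libraries were above all naive ones, and the change was 1.65 ± 0.36 in KO (adjusted p = 0.000648) and 2.66 ± 0.37 in WT (adjusted p = 2.02e-06). Even so, Plcg2 stood at least 19.1 times above Plcg1 per kilobase in each library. Plcg2 itself changed by 0.43 in WT (adjusted p = 0.0133), a call lost without lung WT replicate 2 or naive WT replicate 3, and by −0.05 in KO (adjusted p = 0.796).

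Pik3r1, the regulatory PI3K subunit p85α, held 845, 793, 773 and 777 CPM in lung KO libraries, against 267, 369, 293 and 376 CPM in naive KO libraries. Lung WT libraries held 599, 799, 858 and 794 CPM, against 279, 249, 295 and 319.5 CPM in naive libraries. No lung library overlapped a naive one, with changes of 1.29 ± 0.14 in KO (adjusted p = 9.16e-08) and 1.42 ± 0.14 in WT (adjusted p = 1.13e-08). Pik3ap1 held 101, 117, 113 and 108 CPM in lung KO libraries, against 178, 153, 154 and 156 CPM in naive KO libraries, without overlap. It fell by 0.55 log2 units there (± 0.16, adjusted p = 0.00708) and stood at −0.32 in WT (adjusted p = 0.0941). Pik3cd was called higher in both, at 0.43 in KO and 0.75 in WT, but its sign turned with the length and GC correction, at −0.08 in KO and −0.09 in WT. The KO call of Pik3cd was also lost without naive KO replicate 3.

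The calcium genes parted in lung, with the channel up and the sensor down. Orai1 held 76.5, 73.4, 72.5 and 80.9 CPM in lung KO libraries and 137, 83.8, 79.4 and 80 CPM in lung WT libraries, above every naive library of the same genotype. The change was 1.37 ± 0.15 in KO (adjusted p = 9.83e-08) and 1.34 ± 0.15 in WT (adjusted p = 7.11e-08). Stim1 held 121, 133, 117 and 127 CPM in lung KO libraries and 93.1, 140.0, 124 and 123 CPM in lung WT libraries, all below the naive libraries of the same genotype. Its change was −0.54 ± 0.12 in KO (adjusted p = 0.000963) and −0.44 ± 0.12 in WT (adjusted p = 0.00454). Nfatc1, the NFAT gene that activation itself induces in lymphocytes, changed by 0.46 in KO (adjusted p = 0.0477) and 0.74 in WT (adjusted p = 0.00198). The KO call was lost without any 1 of the 4 lung KO libraries or naive KO replicate 1 or 3. Nfatc2 and Nfatc3 did not pass.

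Among kinases and exchange factors, Prkcd, the protein kinase C-δ gene, held 90.9, 101, 80.6 and 78.1 CPM in lung KO libraries, against 41.3, 58.5, 49.3 and 59 CPM in naive KO libraries. Lung WT libraries held 104, 108, 101 and 111 CPM, against 63.4, 53.1, 63.8 and 64.1 CPM in naive libraries. The groups did not overlap, with changes of 0.75 ± 0.12 in KO (adjusted p = 1.37e-05) and 0.80 ± 0.12 in WT (adjusted p = 3.52e-06). Rasgrp1 went the other way, at 108, 123, 114 and 129 CPM in lung KO against 169.8, 197, 167 and 205 CPM in naive KO libraries, and 71.1, 108, 132 and 101 CPM in lung WT against 177, 167, 125 and 182 CPM in naive WT libraries. It changed by −0.64 ± 0.16 in KO (adjusted p = 0.00188), without overlap, and −0.66 ± 0.16 in WT (adjusted p = 0.00123), with overlap. Vav2 held 9.99, 18.7, 22.5 and 18.5 CPM in lung WT libraries, against 10.5, 11.1, 6.42 and 7.42 CPM in naive WT libraries, which overlapped. It rose by 0.99 ± 0.28 there (adjusted p = 0.00488) and stood at 0.04 in KO (adjusted p = 0.922). Lyn fell by 0.28 in KO and 0.30 in WT, and Syk rose by 0.77 in WT (adjusted p = 6.95e-05) and stood at 0.06 in KO (adjusted p = 0.767).

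Of the adaptors, Gab2, which binds PI3K and SHP-2, held 35.3, 33.7, 34.7 and 28.7 CPM in lung KO libraries, against 22.2, 27.1, 16.9 and 18.1 CPM in naive KO libraries, without overlap. In WT it held 15.8, 24.5, 29.9 and 32 CPM in lung, against 17.5, 14.2, 6.33 and 18.3 CPM in naive libraries, with overlap. The change was 0.65 ± 0.24 in KO (adjusted p = 0.0306) and 0.87 ± 0.24 in WT (adjusted p = 0.00434). Its KO call was lost without lung KO replicate 1, 2 or 3 or naive KO replicate 3 or 4. Malt1 held 225, 209, 212 and 231 CPM in lung KO libraries and 147, 234, 277 and 245 CPM in lung WT libraries, and rose by 0.57 ± 0.16 in KO (adjusted p = 0.00512), without overlap, and by 0.71 ± 0.16 in WT (adjusted p = 0.000631), with overlap. The smaller calls were Ptpn11 (−0.31) in KO, and in WT Ptpn6 (0.51), Vav1 (0.37), Lat2 (0.35), Txk (−0.28) and Bcl10 (−0.27). Of these, Ptpn11 was lost without lung KO replicate 1, 3 or 4 or naive KO replicate 1 or 2, and Lat2 without lung WT replicate 1 or 4 or naive WT replicate 2, 3 or 4. Txk was lost without lung WT replicate 1 or 2 or naive WT replicate 2, 3 or 4, and Bcl10 without lung WT replicate 3 or 4 or naive WT replicate 2 or 4.

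With the length and GC correction, Pik3r1 stood at 1.1 in KO and 1.08 in WT, Orai1 at 0.97 and 0.78, Plcg1 at 1.21 and 1.95, and Prkcd at 0.54 and 0.44, all still called. In WT, Syk then stood at −0.06, Vav2 at 0.12, Nfatc1 at 0.08, Ptpn6 at 0.23, Plcg2 at 0.01 and Vav1 at 0.07, none of them called, and Lyn at −0.18 lost its call. In KO, Malt1 stood at 0.14, Nfatc1 at 0.08 and Gab2 at 0.46, all with their calls lost. Malt1 in WT stood at 0.25 (adjusted p = 0.0433), and Stim1 stood at −1.08 in KO and −1.37 in WT. As counted, genes with under 1.5 kb of exon had a median change of −0.02 in KO and −0.21 in WT, and those of 10 kb or more had 0.29 in KO and 0.56 in WT. Counts under this correction were 5 higher and 18 lower in KO and 8 higher and 16 lower in WT. The share of all calls that was higher moved to 43% from 57.3% in KO and to 46.5% from 59.4% in WT. The median of the members was then −0.194 in KO and −0.099 in WT, beside −0.088 and −0.056 for all genes. Shares of all genes called in that fit are not given here. Without naive KO replicate 3 the count higher in KO was 5, and without naive WT replicate 2 or naive WT replicate 4 the count lower in WT was 3. Macrophage and monocyte marker genes, 8 in the list, summed to 152 to 636 CPM in lung KO and 58.3 to 135 CPM in lung WT libraries, against 7.42 to 18.4 CPM in naive KO and 6.78 to 10.7 CPM in naive WT libraries. Lung epithelium genes summed to 23.7 to 406 CPM in lung KO and 16.8 to 65.4 CPM in lung WT libraries, against 2.02 to 6.36 CPM in naive KO and 1.75 to 3.11 CPM in naive WT libraries, where Sftpc, Sftpb, Sftpa1 and Cldn18 were at 0. The endothelium list, with 4 genes, summed to 24.3 to 75.2 CPM in lung and at most 1.45 CPM in naive spleen. Myeloid cells also express Prkcd, Syk, Lyn, Plcg2 and Ptpn6, and the part of such cells in the lung values was not tested. Most of the macrophage sum was Lyz2, at 132 to 573 CPM in lung KO and 46.2 to 115 CPM in lung WT libraries. The T cell list summed to 123 to 165 CPM in lung KO and 84.5 to 111 CPM in lung WT libraries. Of 33 tests of a marker sum between KO and WT, 4 had the smallest exact permutation p that 4 against 4 allows, 0.0286, or 0.236 adjusted over the 33: macrophage and T cell sums in lung, both higher in KO, and NK cell and basophil sums in naive spleen, both lower in KO.

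**Figure D4:**
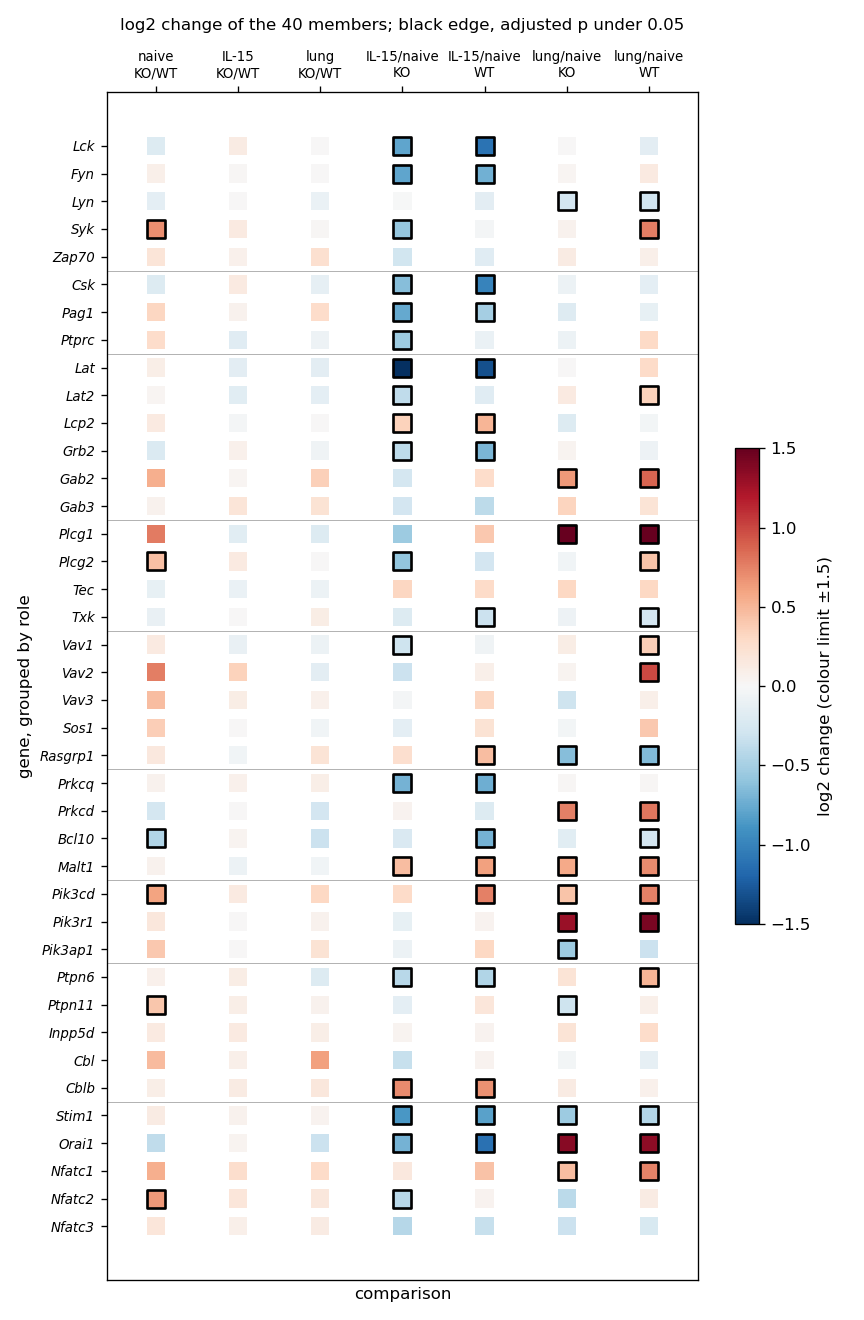
Log2 change of each of the 40 members (rows, grouped by role) in 7 comparisons (columns), red for higher and blue for lower, with colour limited at 1.5. A black edge marks an adjusted p under 0.05. The IL-15 columns hold most of the edged blue squares, and the IL-15 and lung KO/WT columns hold no edged square.

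Zap70, Gab3, Tec, Vav3, Sos1, Inpp5d, Cbl and Nfatc3 passed in none of these comparisons. Zap70 averaged 208 ± 25.9 CPM in IL-15 KO, 196 ± 13.5 in IL-15 WT, 265 ± 17.7 in lung KO and 224 ± 19 CPM in lung WT libraries. Inpp5d, the lipid phosphatase that opposes PI3K, averaged 316 ± 21.5 CPM in IL-15 KO, 287 ± 50 in IL-15 WT, 339 ± 19.8 in lung KO, 316 ± 64.4 in lung WT, 293 ± 23.8 in naive KO and 261 ± 44.3 CPM in naive WT libraries. Tec, a kinase that helps activate phospholipase C-γ, averaged 39.7 ± 1.84 CPM in lung KO and 42.1 ± 4.94 CPM in lung WT libraries, against 31.7 ± 11.5 CPM in naive KO and 34.2 ± 3.34 CPM in naive WT libraries. A missed threshold does not show that these genes were equal between groups.

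The wider pathway was followed in 78 further genes, of which 77 or 78 were tested in each comparison. In naive KO against WT 12 were higher and 9 lower of 77, or 15.6% and 11.7%, beside 11.1% and 9.22% of all genes. Itpr2 (1.23 ± 0.16) and Itpr3 (1.42 ± 0.23) were among those at the smallest p. Itpr2 and Itpr3 encode the channels that let calcium out of the store. Itpr2 held 91.7, 128, 79.1 and 113 CPM in naive KO libraries, against 57.7, 37.8, 33.4 and 43.4 CPM in naive WT libraries. Under IL-15 and in lung, edgeR called 0 of these genes between KO and WT, with 1 and 13 at an unadjusted p under 0.05. Of all genes, 0.135% and 0.625% were called there. The KO effect on Itpr2 differed between states, by −1.27 ± 0.23 for IL-15 minus naive (adjusted p = 0.00876) and −1.08 ± 0.21 for lung minus naive (adjusted p = 0.00922). Itpr3 also differed, by −1.32 ± 0.32 (adjusted p = 0.0471) and −1.26 ± 0.31 (adjusted p = 0.0408). The calls of further genes were not followed through the alternative runs, such as the length and GC correction or leaving out a library. The part of exon length in the changes of Itpr2 and Itpr3 was not tested. In all 5 of the further genes were called in the IL-15 interaction and 2 in the lung interaction, all lower. Fyb and Orai2 were also among the 5. The shares were 6.49% and 2.56%, beside 1.06% and 0.981% of all genes called lower.

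IL-15 against naive called 24 of 77 further genes lower and 12 higher in KO, and 27 lower and 18 higher in WT. In KO these were 31.2% and 15.6%, beside 21% and 20.7% of all genes. In WT they were 35.1% and 23.4%, beside 26% and 26.4% of all genes. Orai3, a relative of Orai1, changed by −0.98 ± 0.10 in KO and −1.5 ± 0.10 in WT. Ppp3r1, the regulatory subunit of calcineurin, fell by 0.96 in KO and 1.27 in WT, and Cdc42, a GTPase that organises the actin skeleton, fell by 0.88 and 1.29. Of the 8 genes of the Rac, WASP and actin group, 4 fell and 1 rose in KO, and 6 fell and none rose in WT, where 21% of all genes fell and 20.7% rose in KO and 26% fell and 26.4% rose in WT. Inpp4b, a lipid phosphatase that acts on a PI3K product, rose by 2.67 in KO and 3.29 in WT. It held 20, 32.4, 25 and 25.1 CPM in IL-15 KO libraries and 25.4, 13.6, 31.6 and 31.3 CPM in IL-15 WT libraries, against 2.31, 5.73, 3.12 and 3.85 CPM in naive KO and 2.29, 2.40, 2.18 and 2.90 CPM in naive WT libraries.

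Lung against naive spleen called 22 of 78 further genes higher and 17 lower in KO, and 25 higher and 16 lower in WT. In KO these were 28.2% and 21.8%, close to the 24.3% and 18.1% of all genes. In WT they were 32.1% and 20.5%, close to the 29.2% and 20% of all genes. Sh2d2a, which encodes the Lck-binding T cell adaptor TSAd, rose by 1.81 in KO and 1.84 in WT. It held 869, 835, 798 and 842 CPM in lung KO libraries and 582, 659.8, 751 and 824 CPM in lung WT libraries, against 216, 242, 234 and 266 CPM in naive KO and 202, 169, 184 and 232 CPM in naive WT libraries. Orai3 changed by −0.94 in KO and −1.2 in WT, and Cdc42 by −0.72 and −1.01.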

How the data were processed

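RNA sequencing of poly(A) RNA from NK cells was deposited by the authors as 1 table of expected counts, 38215 genes by 24 libraries. The tools cutadapt 1.9, STAR 2.5.2a and RSEM 1.2.30 and the build GRCm38 are named per the submitters' processing notes; neither their settings nor the annotation release is given in the sources used here. Some 5.47% of these expected counts were fractional, and all were rounded. No 2 libraries were identical, and all 40 members, 78 further genes and 71 marker genes were matched.

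Tests used edgeR 4.0.16 in R 4.3.3 (filterByExpr, TMM and the quasi-likelihood F test; p-values were adjusted by Benjamini-Hochberg over all genes tested within a comparison, at a threshold of 0.05). The 16 spleen libraries were fitted together, the 8 lung libraries together, and all 24 for lung against spleen. The KO effect was compared between states as an interaction. A standard error is |log2 change| over the square root of F, and levels are CPM from TMM-scaled library totals. Exon lengths, GC content and the length and GC correction came from GENCODE M21 and covered 98.6% of genes. Marker sums were compared with two-sided exact permutation tests. The edgeR script was tested on simulated data.

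Members and lists were chosen with earlier results of these data known. Full values are given for members that passed between KO and WT or in an interaction, and for the 8 largest changes among those that passed in IL-15 or lung against naive spleen in either genotype. Up to 3 further genes a comparison are named by smallest p; Fyb and Orai2, among others, are named beside their count. Single values of 1 further gene are not reported here. Alternatives were DESeq2 1.42.0 and its size factors, no filter and a filter of 1 CPM in 4 libraries, other sets of libraries, a length and GC correction, a replicate block, libraries under 15 M counts left out together, each library left out in turn, and another gene length. Biological replicates are as the study's design states; p-values measure the spread between them.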

Additional observations from a re-analysis of the deposited data

Results flagged for a closer look

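In 240 sets of 4 libraries (40 members in 6 groups), 19 held a library far from the other 3 by Dixon's test at the 95% level; chance gives about 1 in 20 sets. Of these, 5 were in naive KO and 4 of them in the shallow replicate 1: Lcp2 at 152 CPM (others 172 to 175), Grb2 at 151 (186 to 191), Txk at 177 (252 to 267) and Pik3ap1 at 178 (153 to 156). The other was Prkcq in naive KO replicate 3, at 226 CPM (244 to 247). A further 4 were in lung WT replicate 1, the other shallow library: Syk at 240 CPM (333 to 335), Sos1 at 16.7 (28 to 29.6), Orai1 at 136 (79.4 to 83.8) and Nfatc3 at 184 (297 to 303). Lyn stood at 78.8 CPM in lung WT replicate 2 (89 to 90.8).

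Lung KO held 3 such values: Vav2 at 10.8 CPM in replicate 4 (17.3 to 17.9), Prkcq at 254 in replicate 1 (238 to 241) and Ptpn11 at 143 in replicate 2 (121 to 124). In naive WT they were Zap70 at 175 CPM (219 to 224) and Ptpn11 at 98.3 (120 to 122), both in replicate 3, and Prkcd at 53.1 in replicate 2 (63.4 to 64.1). Under IL-15 they were Prkcd at 64 CPM in KO replicate 3 (53.4 to 54.6), Stim1 at 96.1 in KO replicate 4 (106 to 107) and Prkcq at 123 in WT replicate 2 (149 to 153).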

How the results depend on the processing

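Each called member kept its direction in each alternative run, apart from Pik3cd (−0.08 in KO, −0.09 in WT) and Syk (−0.06 in WT) in lung against naive spleen under the length and GC correction. Of the members called, 1 of 6 kept its call in every alternative in naive KO against WT, 15 of 19 in IL-15 against naive in KO and 12 of 17 in WT, and 8 of 13 in lung against naive spleen in KO and 8 of 19 in WT. The length and GC correction gave counts of 1 higher and 6 lower in naive KO against WT, 26 lower under IL-15 in KO, 2 higher and 26 lower under IL-15 in WT, 5 higher and 18 lower in lung KO against naive KO, 8 higher and 16 lower in lung WT against naive WT, and 1 higher in the IL-15 interaction (Csk). DESeq2 gave 9 higher in naive KO against WT, 2 higher in the IL-15 interaction and 1 lower in the lung interaction. Over all genes DESeq2 called 692 and 520 in these interactions, and its count in naive KO against WT is not given here. Without the libraries under 15 M counts, 1 member was higher in lung KO against WT and 1 lower in the lung interaction. The cause of these moves was not tested. Shares of all genes called with the length and GC correction are not given beside these counts.

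Leaving out 1 library at a time gave, higher and lower, 3 to 8 and 1 to 2 members in naive KO against WT, 0 to 1 and 0 to 0 in lung KO against WT, and 0 to 0 both ways under IL-15. For IL-15 against naive it gave 2 to 4 and 13 to 17 in KO, and 5 to 10 and 10 to 13 in WT. For lung against naive spleen it gave 5 to 8 and 4 to 6 in KO, and 12 to 16 and 3 to 5 in WT. In the interactions it gave 0 to 1 and 0 to 1 for IL-15, and 0 to 0 and 0 to 1 for lung. Over all genes, 1697 to 2729 were called in naive KO against WT (2705 with all libraries), 14 to 17 under IL-15 (18) and 41 to 448 in lung (82). The IL-15 interaction called 83 to 714 (205), and the lung interaction 72 to 570 (164). DESeq2 called 30 genes under IL-15, 314 in lung, 692 in the IL-15 interaction and 520 in the lung interaction. Lung KO against WT called 129 genes with no filter, 146 with the length and GC correction and 448 without the shallow library. The IL-15 interaction called 368 with all 24 libraries fitted, and the lung interaction 506 without the shallow libraries.

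The labels do not say what a replicate number marks. Same-numbered libraries correlated at −0.19 to 0.25, and no pair of groups had every value over 0.1. These correlations cannot exclude a shared animal, litter or day. With the replicate block, naive KO against WT had counts of 5 higher and 1 lower, and no member count moved by over 1.5 times; the calls of Nfatc2 under IL-15 in KO and of Ptpn11 in lung KO against naive KO were lost, and Zap70 was called under IL-15 in KO (−0.3, adjusted p = 0.0403). The longest transcript as length kept the direction of all 13 family ratios, with Nfatc3 over Nfatc1 at 1.46 in place of 1.16. Depth limits Plcg1 most, at 1.02 to 2.45 CPM in naive WT.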
